A study of Mus musculus with 30 samples.

Results

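The members are 10 heat shock chaperone genes, measured in mouse microglia, the resident macrophages of the brain. They are Hspa1a, Hspa1b and Hspa8 of the HSP70 family, Hsp90aa1 and Hsp90ab1 of the HSP90 family, the J-domain partners Dnajb1 and Dnajb4, the nucleotide exchange factor Hsph1, the small heat shock protein Hspb1 and the mitochondrial Hspe1. They were taken by gene name, and all 10 were found among the 54532 genes of the deposited count table. Bulk mRNA was sequenced in 30 libraries that form 10 groups of 3, namely 5 isolation protocols, each with HMGB1-treated cells and untreated Control cells. HMGB1 is a nuclear chromatin protein that acts as a danger signal once released, and treated cells were exposed to it for 4 h. In Protocol 1 microglia were shaken off mixed glial cultures made from pups of C57BL/6 mice (C57/B6 in the labels) aged 0 to 3 days. The mixed cultures ran for 10 days with GM-CSF at 0.5 ng/ml in Protocol 1A, for 10 days without GM-CSF in Protocol 1B, and for 21 days with 0.5 ng/ml GM-CSF in Protocol 1C. In Protocol 2 adherent cells of C57BL/6 mice aged 6 to 8 weeks grew for 7 days in medium that held 100 ng/ml of GM-CSF and as much M-CSF. In Protocol 3 microglia of C57BL/6 mice of that age were pulled from dissociated brain with anti-CD11b beads and were used at once, without culture, in plain medium (Control) or medium with 1 µg/ml HMGB1. A flask of Protocol 1 pooled 5 pups and a flask of Protocol 2 pooled 3 brains, and replicates came from separate litters in Protocol 1 and from different adult mice in Protocols 2 and 3. Between Protocol 1 and Protocol 3 the age of the mice, the culture and the way of isolation change together and cannot be told apart. Protocols 2 and 3 share the age of the mice and differ in both culture and isolation, which cannot be told apart either. Protocols 1A, 1B and 1C share age and isolation and differ in GM-CSF or in the days of culture.

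Heat shock chaperones bind unfolded or partly folded proteins and help them reach or regain their native shape. HSP70 proteins do so in a cycle driven by ATP, in which J-domain proteins deliver the client and start ATP hydrolysis and nucleotide exchange factors such as Hsph1 reset the chaperone. HSP90 proteins take over later folding steps of kinases, hormone receptors and other signalling proteins, small heat shock proteins hold unfolding proteins without ATP, and Hspe1 is the lid of the mitochondrial chaperonin whose barrel is Hspd1. Some of these genes are made constantly (Hspa8, Hsp90ab1), while others (Hspa1a, Hspa1b, Hsp90aa1, Dnajb1, Hspb1, Hsph1) are classic targets of heat shock factor 1, the transcription factor that is set free when unfolded proteins accumulate. It binds heat shock elements, repeats of the unit NGAAN in alternating direction.

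Promoter sequence was searched for such elements, because these elements are what the inducible members are known to share. RefSeq windows of 250 bases before the start (GRCm38.p6) were at hand for 7 members, and Hspa8, Hsp90aa1 and Hsp90ab1 were not among them. Each window was scanned on both strands for 2 adjoining units, GAANNTTC or TTCNNGAA, which both read the same on either strand and can overlap each other by 3 bases. Such a pair was present in a window of 6 of the 7 genes, against 14.5% of all 27025 genes with a window. A run of 3 units, GAANNTTCNNGAA or TTCNNGAANNTTC, was present in Hspe1 alone of the 7, against 0.514% of all genes. The stretches below carry the matches in capitals, 5′ to 3′ on the strand of the gene. They cover bases −130 to −71 from the RefSeq start in Hspa1a (chr17:34972227-34972286, minus strand), Hspa1b (chr17:34959309-34959368, minus strand) and Hspb1 (chr5:135887789-135887848, plus strand), −110 to −51 in Hspe1 (chr1:55088038-55088097, plus strand) and Dnajb1 (chr8:83608065-83608124, plus strand), and −45 to −16 in Hsph1 (chr5:149636352-149636381, minus strand).
Hspa1a: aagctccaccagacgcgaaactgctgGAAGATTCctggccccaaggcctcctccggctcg
Hspa1b: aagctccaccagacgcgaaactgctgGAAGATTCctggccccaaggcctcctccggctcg
Hspb1: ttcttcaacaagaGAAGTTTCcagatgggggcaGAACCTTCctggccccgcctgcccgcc
Hspe1: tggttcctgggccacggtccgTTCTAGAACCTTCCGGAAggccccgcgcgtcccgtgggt
Hsph1: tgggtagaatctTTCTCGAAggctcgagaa
Dnajb1: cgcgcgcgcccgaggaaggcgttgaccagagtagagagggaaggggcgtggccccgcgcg
The Hspa1a and Hspa1b stretches were the same letter for letter, and their whole windows matched at 247 of 250 positions. Hspb1 had 2 separate pairs, and in Hspe1 overlapping pairs joined into 1 run of capitals. Dnajb1 had no match in its window and is shown for comparison. Dnajb4 had a pair only in the window of an alternative start, 14 bases before it. A match is a feature of the letters and was not tested as a binding site.

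Library totals ran between 14151983 and 28564757 counts, and levels are given as CPM, counts scaled to 1000000 per library after adjusting the total by its TMM factor. Of the 10 homeostatic microglia markers 9 or 10 had counts in every library, Siglech being the one at 0 in 9 of the 24 cultured libraries, and their summed level was 5225 to 6201 CPM in Protocol 3 and 1432 to 2540 CPM in the cultured groups. Protocol 3 also had higher levels of blood cell markers. All 8 neutrophil markers had counts in its 6 libraries, with a sum of 325 to 692 CPM, against 1 to 5 of 8 and at most 23.4 CPM in cultured libraries, where Retnlg was at 0 in all 24. All 5 erythroid markers summed to 342 to 662 CPM in Protocol 3 and to at most 0.579 CPM elsewhere, where Hba-a2 was at 0 in all 24. Summed immediate early genes, which switch on within minutes of a stimulus or of tissue handling, reached 26445 to 29234 CPM in Protocol 3 and 1059 to 4277 CPM in cultured libraries. Fibroblast and mural markers summed to 195 to 413 CPM in Protocol 2 and 26.1 to 34.2 CPM in Protocol 3, astrocyte markers to at most 101 CPM, oligodendrocyte markers to at most 277 CPM, endothelial markers to at most 339 CPM, neuron markers to at most 13.5 CPM and T and B cell markers to at most 9.38 CPM in any library. Mitochondrial transcripts took 0.613 to 0.849% of the counts in Protocol 3, 0.884 to 1.12% in Protocol 2 and 1.20 to 1.87% in Protocol 1. The paper reports lower RNA yield and lower RNA integrity for the adult cells used without culture than for the cultured adult cells. The part of these differences in the results, RNA quality included, was not tested. In bulk samples fewer cells of a type and less RNA per cell cannot be told apart.

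The chaperones set the cultured cells apart from the acutely isolated ones. Summed over the 10 genes, the level was 2271 to 2895 CPM on average in the untreated cultured groups, against 29356 ± 7964 CPM (SD, n = 3) in untreated Protocol 3 cells. In the Controls all 10 genes were lower in Protocol 1 (the mean of 1A, 1B and 1C) than in Protocol 3, and all 10 were lower in Protocol 2 than in Protocol 3. Across all 17033 genes tested, 42.9% were lower and 80.1% differed in either direction for Protocol 1 over Protocol 3 (edgeR's quasi-likelihood test, adjusted p below 0.05), and 37.2% were lower and 77.3% differed for Protocol 2 over Protocol 3. The median log2 fold change of the 10 genes was −3.94 and −3.97 in these comparisons, against −0.12 and 0.08 over all genes. For none of the 10 did a cultured Control library reach the lowest Protocol 3 Control library, which also held for 33.8% of all genes tested in the Protocol 1 Controls and for 37.1% in the Protocol 2 Controls.

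**Figure D1:**
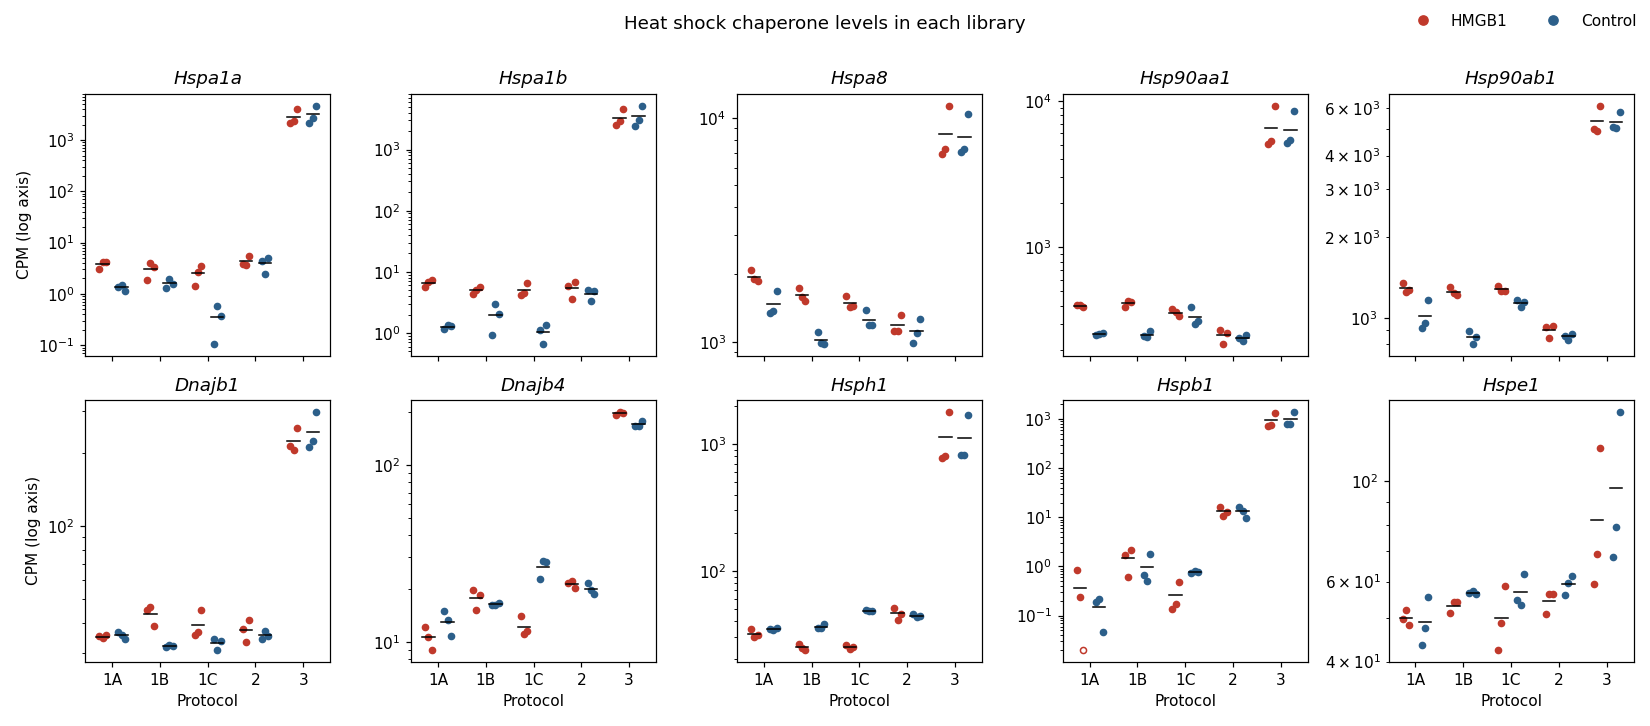
Level of each chaperone gene in every library, in CPM on a log axis that differs between panels, by protocol, with HMGB1 libraries in red to the left and Control libraries in blue to the right. Points are libraries in the order of replicates 1 to 3, black lines are group means, and the open point for Hspb1 in Protocol 1A is the library with 0 counts, drawn near the lower edge. In 9 panels every Protocol 3 library lies above all others, while for Hspe1 the lowest Protocol 3 HMGB1 library (59.2 CPM) lies below the highest Protocol 2 Control library (61.7 CPM).

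The stress-inducible HSP70 genes had the largest log2 fold changes of the 10. Hspa1a (ENSMUSG00000091971, chr17:34969190-34972156, minus strand) had 1.38, 1.52 and 1.13 CPM in Protocol 1A Controls, 1.32, 1.94 and 1.57 in Protocol 1B, 0.107, 0.589 and 0.372 in Protocol 1C and 4.37, 2.49 and 5.08 in Protocol 2, against 2158, 2737 and 4713 CPM in Protocol 3. No cultured Control came near the Protocol 3 level, and those of Protocol 1C rested on 2, 15 and 9 reads. The log2 fold change was −11.78 ± 0.28 for Protocol 1 over Protocol 3 (SE, adjusted p = 2.24e-12) and −9.74 ± 0.41 for Protocol 2 over Protocol 3 (adjusted p = 7.27e-10, edgeR). Hspa1b (ENSMUSG00000090877, chr17:34956436-34959238, minus strand), its neighbour and near copy, had 1.15, 1.34 and 1.32 CPM in Protocol 1A Controls and 5.07, 3.29 and 4.89 in Protocol 2, against 2462, 3038 and 5232 CPM in Protocol 3. Its log2 fold changes were −11.38 ± 0.29 for Protocol 1 and −9.74 ± 0.43 for Protocol 2, both over Protocol 3. In Protocol 2 the mean level was 0.124% of that in Protocol 3 for Hspa1a and 0.123% for Hspa1b. Of the 100-base stretches of Hspa1a transcripts 47.1% also occur in Hspa1b, so how reads split between them is uncertain. Gm20481 overlaps 2225 bases of Hspa1a on the other strand and had 0 counts.

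Hspa8 (ENSMUSG00000015656, chr9:40800984-40810087, plus strand), the constitutive HSP70, was high in every group and had a smaller log2 fold change. It had 1344, 1376 and 1694 CPM in Protocol 1A Controls and 988, 1100.4 and 1271 in Protocol 2, against 7049, 7247 and 10476 CPM in Protocol 3, with log2 fold changes of −2.79 ± 0.10 for Protocol 1 and −2.97 ± 0.15 for Protocol 2 over Protocol 3. The makeup of HSP70 transcripts differed accordingly. Per kilobase of gene length, Hspa1a and Hspa1b together made up 0.268 ± 0.0475% of the 3 HSP70 members in Protocol 1A Controls (SD, n = 3), 1.12 ± 0.316% in Protocol 2 Controls and 54.2 ± 4.58% in Protocol 3 Controls. Over all 24 cultured libraries the share ran from 0.134 to 1.41%, and over the 6 Protocol 3 libraries from 49.5 to 58.7%. The share depends on the length used, 4301 bases for Hspa8, whose protein-coding transcripts hold 2550 distinct 100-base stretches. A shorter length for Hspa8 would lower it. The authors' table counts reads to Hspa8 although 57.1% of its 100-base transcript stretches also occur in another gene, mostly in Gm26825, and how such reads were handled is not given in the sources used here.

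HSP90 was also lower in the cultured Controls than in Protocol 3, on a smaller scale. Hsp90aa1 (ENSMUSG00000021270, chr12:110690605-110702728, minus strand), the inducible isoform, had 251, 256 and 261 CPM in Protocol 1A Controls and 242, 231 and 254 in Protocol 2, against 5159, 5391 and 8523 CPM in Protocol 3. Its log2 fold change was −4.56 ± 0.11 for Protocol 1 and −4.80 ± 0.18 for Protocol 2 over Protocol 3. The constitutive isoform Hsp90ab1 (ENSMUSG00000023944, chr17:45567775-45573271, minus strand) had 918, 956 and 1165 CPM in Protocol 1A Controls and 855, 832 and 875 in Protocol 2, against 5106, 5069 and 5823 CPM in Protocol 3 (−2.48 ± 0.07 and −2.73 ± 0.09). Hsp90aa1 made up 16.3 ± 1.46% of HSP90 transcripts per kilobase in Protocol 1A Controls and 17.8 ± 0.334% in Protocol 2, against 47.0 ± 5.00% in Protocol 3. Neither share overlapped between cultured and Protocol 3 libraries. Of the 100-base stretches of Hsp90aa1 transcripts 40.7% also occur in another gene, mostly in Gm12346, against 0% for Hsp90ab1.

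**Figure D2:**
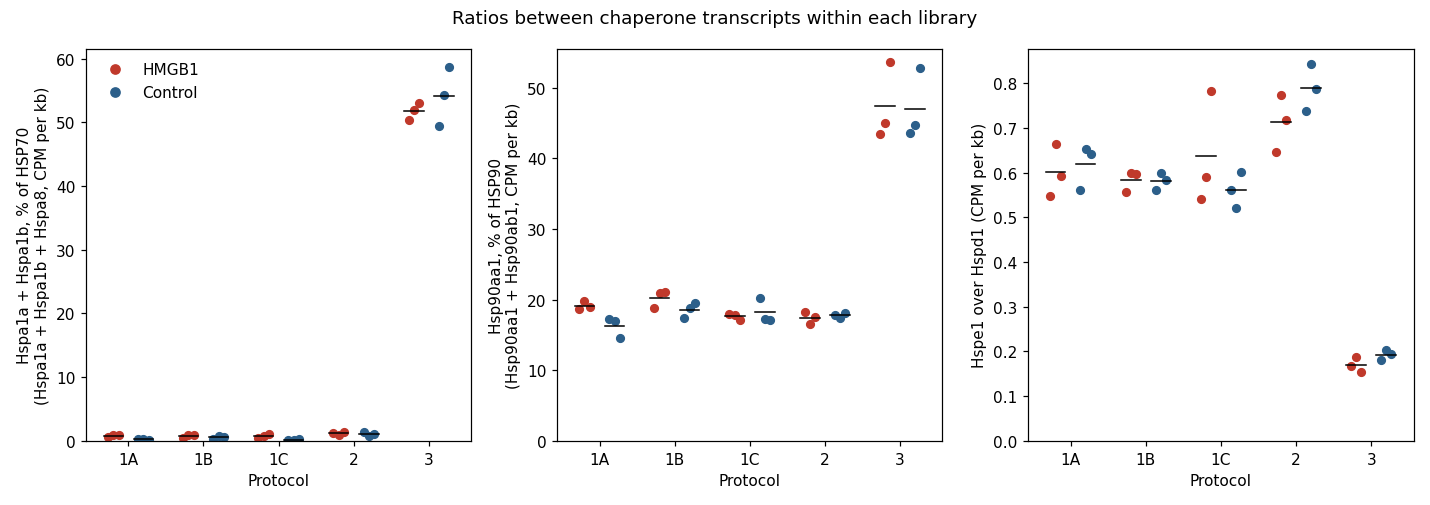
Ratios of chaperone transcripts within each library, from CPM per kilobase of gene length, by protocol, with HMGB1 libraries in red to the left and Control libraries in blue to the right, and black lines at group means. The inducible share of HSP70 (left) runs from 49.5 to 58.7% in Protocol 3 and reaches at most 1.41% elsewhere, the Hsp90aa1 share (middle) is higher in Protocol 3, and Hspe1 over Hspd1 (right) is lower there.

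The partners of HSP70 followed. Hsph1 (ENSMUSG00000029657, chr5:149614287-149636376, minus strand), which resets HSP70 by exchanging its nucleotide, had 34.8, 34.1 and 35.6 CPM in Protocol 1A Controls and 45.5, 43.3 and 43.9 in Protocol 2, against 816, 828 and 1714 CPM in Protocol 3, with log2 fold changes of −4.88 ± 0.17 for Protocol 1 and −4.75 ± 0.26 for Protocol 2 over Protocol 3. Dnajb1 (ENSMUSG00000005483, chr8:83608193-83612653, plus strand), the main inducible J-domain partner, had 36.7, 35.7 and 34.3 CPM in Protocol 1A Controls and 34.4, 37.0 and 35.3 in Protocol 2, against 214, 226 and 297 CPM in Protocol 3 (−2.93 ± 0.07 and −2.87 ± 0.10). Dnajb4 (ENSMUSG00000028035, chr3:152178511-152210302, minus strand), a close relative of Dnajb1, had 14.9, 13.3 and 10.8 CPM in Protocol 1A Controls and 21.5, 19.7 and 18.5 in Protocol 2, against 167, 167 and 179 CPM in Protocol 3 (−3.32 ± 0.08 and −3.19 ± 0.11). For each of the 3 partners the Protocol 3 libraries lay above all cultured Controls without overlap. Among all genes the Protocol 3 Controls did so for 33.8% against Protocol 1 and 37.1% against Protocol 2.

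Hspb1 (ENSMUSG00000004951, chr5:135887919-135889563, plus strand), which encodes the small heat shock protein HSP25 of the mouse, differed by protocol among the cultured cells as well. It had 0.186, 0.217 and 0.0471 CPM in Protocol 1A Controls, 0.660, 0.495 and 1.78 in Protocol 1B, 0.747, 0.824 and 0.785 in Protocol 1C and 16.5, 13.4 and 9.85 in Protocol 2, against 790.1, 791 and 1407 CPM in Protocol 3. Neonatal cultures had very few reads, with 5, 5 and 1 reads in Protocol 1A, Protocol 2 was in between, and the 3 ranges of levels did not overlap. The log2 fold change was −11.03 ± 0.29 for Protocol 1 over Protocol 3, −6.32 ± 0.34 for Protocol 2 over Protocol 3 and −4.72 ± 0.34 for Protocol 1 over Protocol 2 (adjusted p = 3.44e-07, edgeR). A processed copy, Hsp25-ps1, shares 44.0% of the 100-base stretches of Hspb1.

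Hspe1 (ENSMUSG00000073676, chr1:55088132-55091307, plus strand) was the least different member. It had 43.5, 47.4 and 55.5 CPM in Protocol 1A Controls and 56.2, 59.5 and 61.7 in Protocol 2, against 67.9, 79.3 and 142 CPM in Protocol 3, with log2 fold changes of −0.89 ± 0.17 for Protocol 1 (adjusted p = 0.000298) and −0.79 ± 0.21 for Protocol 2 (adjusted p = 0.00464) by edgeR. The Protocol 2 call was lost when only the 6 libraries compared were fitted (adjusted p = 0.0727). Replicate 3 of Protocol 3 was the highest library, and without it the log2 fold change was smaller, for Protocol 1 (−0.49, adjusted p = 1.53e-05) and for Protocol 2 (−0.39, adjusted p = 0.00108). Hspd1, the barrel that Hspe1 caps, starts at the same promoter in the opposite direction, and its transcripts overlap those of Hspe1 by 112 bases. It averaged 141 ± 12.8 CPM in Protocol 1A Controls and 135 ± 7.22 CPM in Protocol 2, against 895 ± 364 CPM in Protocol 3 (SD, n = 3 each), with log2 fold changes of −2.49 for Protocol 1 and −2.82 for Protocol 2 over Protocol 3. Per kilobase, Hspe1 over Hspd1 was 0.618 ± 0.0495 in Protocol 1A Controls and 0.789 ± 0.0533 in Protocol 2, against 0.193 ± 0.0120 in Protocol 3. The pair that shares a promoter thus did not keep a fixed ratio of counts, and 6 annotated Hspe1 pseudogenes held 173 counts, or 0.442% of those of Hspe1. Whether counting used strand is not given in the sources used here, and without strand reads in the overlap cannot be assigned.

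**Figure D3:**
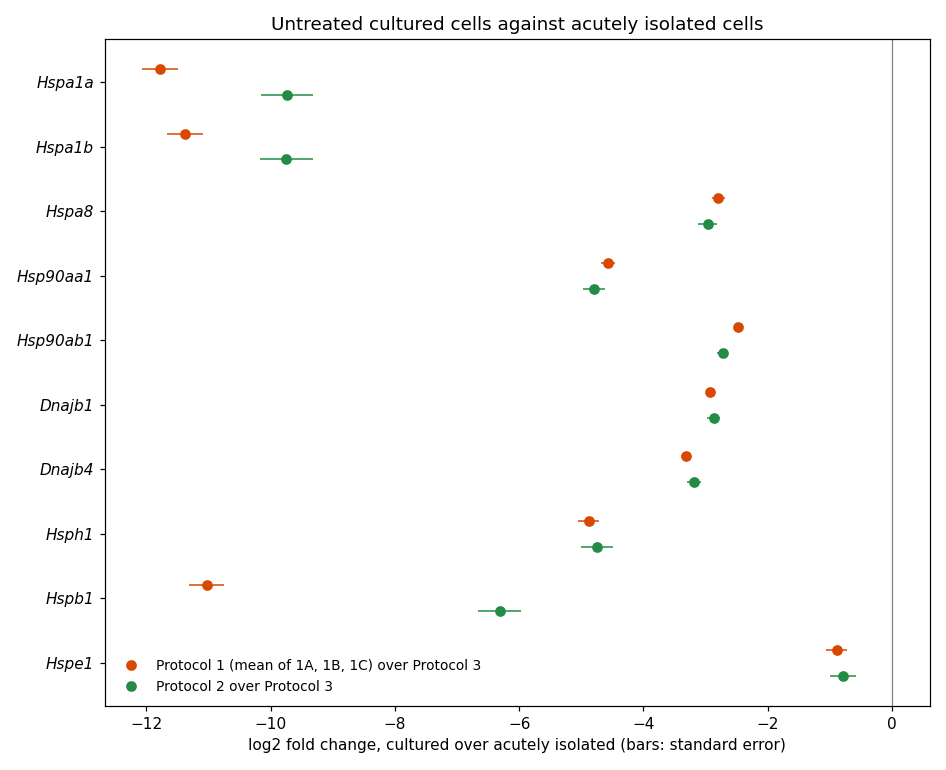
Log2 fold change of each chaperone gene in untreated cells, Protocol 1 over Protocol 3 in orange and Protocol 2 over Protocol 3 in green, with standard errors from the quasi-likelihood fit as bars. All points lie left of 0 and passed the test, from −11.78 for Hspa1a in Protocol 1 to −0.79 for Hspe1 in Protocol 2.

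Protocol 3 libraries were not alike among themselves. Replicate 3 had more of 9 members than replicates 1 and 2, and this held in the HMGB1 library and in the Control library alike. For Hsph1 the HMGB1 libraries of replicates 1, 2 and 3 had 778, 809 and 1803 CPM and the Control libraries 816, 828 and 1714 CPM. Replicate 3 was thus 2.27 times the mean of the other 2 with HMGB1 and 2.08 times in Controls. The same ratio was 1.75 and 1.93 for Hspa1a, 1.79 and 1.62 for Hsp90aa1, and 1.86 and 1.78 for Hspb1. It was smaller for Hsp90ab1 (1.23 and 1.15) and Dnajb1 (1.21 and 1.35). Dnajb4 was the exception, at 1.00 with HMGB1 and 1.07 in Controls. These ratios describe 2 libraries and have no test. Without both replicate 3 libraries, an alternative chosen after seeing the data, all 10 genes were still lower in Protocols 1 and 2, with Hspa1a for Protocol 2 over Protocol 3 as an example (−9.34, adjusted p = 4.81e-11). Other lists were highest in replicate 3 as well. The mitochondrial chaperones summed to 1600, 1564 and 2284 CPM in HMGB1 replicates 1, 2 and 3 and to 1664, 1647 and 2215 CPM in Control replicates. This excess lay in Hspd1, whose ratio to Hspe1 was similar in these libraries (Hspe1 over Hspd1 0.180, 0.204 and 0.193 per kilobase in Controls). Cytosolic HSP70 partners summed to 2411, 2376 and 2590 CPM with HMGB1 and 2484, 2410 and 2633 CPM in Controls. HSP90 cochaperones had 716, 703 and 733 CPM with HMGB1 and 721, 748 and 770 CPM in Controls. None of the remaining chaperone lists was highest in replicate 3 of both groups. The homeostatic microglia markers summed to 5481, 5225 and 6201 CPM with HMGB1 and 5798, 5629 and 5864 CPM in Controls. Immediate early genes were lowest in replicate 3 with HMGB1 (29234, 28172 and 27201 CPM) and highest there in Controls (26445, 26941 and 27473 CPM). Neutrophil markers were highest in replicate 2 (648 CPM with HMGB1 and 692 CPM in Controls), and erythroid markers were lowest in replicate 3 (342 and 351 CPM).

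**Figure D4:**
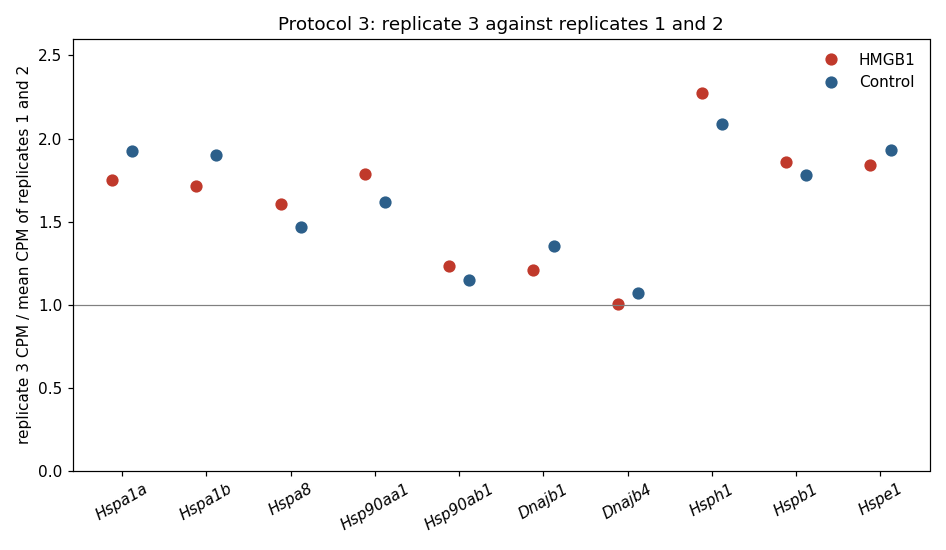
CPM of replicate 3 divided by the mean CPM of replicates 1 and 2 in Protocol 3, for the HMGB1 libraries (red, left) and the Control libraries (blue, right) of each gene. The line at 1 marks no difference, Hsph1 has the highest ratios, and Dnajb4 lies closest to the line.

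In the Controls of Protocols 1B and 1C, not given in full above, Hspa8 had 980.3 to 1394 CPM, Hsp90aa1 244 to 389, Hsp90ab1 802 to 1171, Hspa1b 0.667 to 2.97, Dnajb1 30.9 to 34.2, Hsph1 35.1 to 49.1 and Hspe1 53.3 to 62.3 CPM. Ordered by mean level, both Protocol 3 groups came first for each of the 10 genes, and below them most neighbours overlapped. For Hspa1a the order went on with Protocol 2 (4.36 ± 0.999 CPM with HMGB1 and 3.98 ± 1.34 in Controls), the HMGB1 groups of Protocols 1A, 1B and 1C (3.84 ± 0.701, 3.07 ± 1.06 and 2.55 ± 1.07) and the Controls of 1B and 1A, all of them overlapping their neighbours, with the Protocol 1C Controls (0.356 ± 0.241 CPM) apart at the bottom. For Hsp90aa1 it went on with HMGB1-treated 1B and 1A, both 1C groups, the 1A and 1B Controls and both Protocol 2 groups.

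Between the cultured Controls fewer members differed. Of the 10 genes, 4 differed between Protocol 1 and Protocol 2, 1 higher and 3 lower, against 55.3% of all genes tested (24.6% higher and 30.7% lower). Hspa1a and Hspa1b were lower in Protocol 1 (log2 fold changes −2.04 ± 0.37 and −1.64 ± 0.35), as was Hspb1, and Hsp90ab1 was higher by 0.25 ± 0.07 (adjusted p = 0.00629, edgeR). Within the neonatal cultures, Protocol 1B differed from 1A in the absence of GM-CSF and Protocol 1C in the time of culture. Protocol 1B over Protocol 1A had 2 calls (30.8% of all genes differed), Hspa8 (log2 fold change −0.49 ± 0.14, adjusted p = 0.0120) and Dnajb4 (log2 fold change 0.36 ± 0.11, adjusted p = 0.0190). Both calls were lost without Protocol 1A Control replicate 3 and without Protocol 1B Control replicate 3, and 5 genes passed without replicate 3 of Protocol 3, whose spread enters this fit (30.6% of all genes there). Protocol 1C over Protocol 1A had 1 call (21% of all genes differed), Dnajb4, with 22.6, 28.7 and 28.4 CPM in Protocol 1C Controls against 14.9, 13.3 and 10.8 CPM in Protocol 1A Controls (log2 fold change 1.04 ± 0.11, adjusted p = 1.23e-06). The count was 2 without Protocol 1A Control replicate 3. With replicate 3 of Protocol 3 left out, 5 genes passed there too (21.3% of all genes), among them Hsph1 (0.49, adjusted p = 1.46e-05). Markers of other cell types also differed between these Controls. In Protocol 1C, 8 of 9 oligodendrocyte, 5 of 8 astrocyte and 4 of 8 fibroblast and mural markers were higher than in 1A, while 2 astrocyte markers were lower. In Protocol 1B, 5 of 9 oligodendrocyte, 6 of 8 astrocyte and 4 of 8 fibroblast and mural markers were higher than in 1A, while 1, 2 and 0 of them were lower, and 5 of 6 monocyte markers were lower. Fibroblast and mural markers summed to 44.5 to 96.6 CPM in 1C Controls and 27.2 to 89.6 CPM in 1B Controls, against 3.25 to 5.74 CPM in 1A Controls, and monocyte markers to 122 to 171 CPM in 1C and 55.6 to 65.0 CPM in 1B, against 227 to 293 CPM in 1A. Their part in the member calls was not tested.

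After TMM scaling, the inducible HSP70 genes rose with HMGB1 in all 3 neonatal cultures. Hspa8 and the HSP90 genes rose in Protocols 1A and 1B on the same scaling. In Protocol 1A, 5 of the 9 members tested rose and none fell, where 61.3% of all 13489 genes tested changed, 29.7% rose and 31.6% fell, so the share of members called was near that of all genes. Hspa1b had 5.64, 6.81 and 7.36 CPM in HMGB1 libraries, against 1.15, 1.34 and 1.32 CPM in Control libraries (log2 fold change 2.35 ± 0.22, adjusted p = 5.73e-07). Hspa1a had 3.04, 4.28 and 4.22 CPM with HMGB1, against 1.38, 1.52 and 1.13 CPM in Controls (log2 fold change 1.48 ± 0.27, adjusted p = 0.000287). The groups did not overlap for either gene, yet both stayed far below the untreated Protocol 3 cells. Hsp90aa1 had 407, 402 and 390.0 CPM with HMGB1, against 251, 256 and 261 CPM in Controls (log2 fold change 0.62 ± 0.06, adjusted p = 8.36e-07). The constitutive Hspa8 had 2090.2, 1915 and 1868 CPM with HMGB1, against 1344, 1376 and 1694 CPM in Controls (log2 fold change 0.39 ± 0.09, adjusted p = 0.00138). Hsp90ab1 had 1353, 1247 and 1271 CPM with HMGB1, against 918, 956 and 1165 CPM in Controls (log2 fold change 0.33 ± 0.08, adjusted p = 0.00387). No HMGB1 library of these 5 genes was as low as any Control library, which also held for 33.1% of all genes tested. Dnajb1, the inducible partner of HSP70, had 35.2, 34.5 and 35.5 CPM with HMGB1 against 36.7, 35.7 and 34.3 CPM in Controls, and Dnajb4, Hsph1 and Hspe1 did not pass either (log2 fold changes −0.32, −0.15 and 0.01). Hspb1 was too low to be tested, with 16, 5 and 0 reads in HMGB1 libraries and 5, 5 and 1 in Controls. The TMM factors were 1.25, 1.25 and 1.18 in Controls and 0.894, 0.909 and 0.893 with HMGB1. By raw counts, the members together took 0.331, 0.341 and 0.384% of Control libraries and 0.357, 0.337 and 0.327% of HMGB1 libraries. These raw shares overlapped between the groups. DESeq2 size factors differed from the TMM scale by at most 0.0750 in log2 here. Whether the rises of Hspa8 and Hsp90ab1 hold under another kind of scaling was not tested.

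In Protocol 1B, 6 of 10 members rose and 1 fell, where 61.8% of all genes changed, 29.8% rose and 32% fell. Hspa8, at 1746, 1582 and 1527 CPM with HMGB1 against 1109, 983 and 980.3 CPM in Controls, rose by 0.67 ± 0.08 on the log2 scale (adjusted p = 2.28e-05, edgeR). Hsp90aa1 had 393, 431 and 425 CPM with HMGB1, against 247, 244 and 269 CPM in Controls (log2 fold change 0.72 ± 0.07, adjusted p = 3.92e-06), and Hsp90ab1 rose by 0.57 ± 0.06. Dnajb1 also passed here, with 45.3, 46.7 and 38.8 CPM in HMGB1 libraries against 31.9, 32.5 and 32.0 CPM in Controls (log2 fold change 0.44 ± 0.09, adjusted p = 0.00101). Hspa1b had 4.30, 5.07 and 5.57 CPM with HMGB1, against 0.943, 2.97 and 2.08 CPM in Controls (log2 fold change 1.31 ± 0.36, adjusted p = 0.00878). Hspa1a passed as well (log2 fold change 0.94 ± 0.33, adjusted p = 0.0294), but its call was lost without Control replicate 1 or 3 or HMGB1 replicate 2 or 3 (adjusted p between 0.0683 and 0.131). Hsph1 went the other way, with 26.6, 24.6 and 23.7 CPM with HMGB1 against 35.1, 35.2 and 38.1 CPM in Controls (log2 fold change −0.53 ± 0.08, adjusted p = 0.000162). Fitted with all 30 libraries, the Hspa1a and Hsph1 calls were lost (adjusted p = 0.110 and 0.110). By raw counts, the members together took 0.279, 0.270 and 0.279% of Control libraries and 0.320, 0.290 and 0.296% of HMGB1 libraries. These raw shares did not overlap, but Hspa8 and the HSP90 genes weigh most in them, so they do not speak for Dnajb1. The TMM factors were 1.17, 1.24 and 1.24 in Controls and 0.891, 0.852 and 0.895 with HMGB1. Whether the rises of Dnajb1, Hspa8 and Hsp90ab1 here hold under another kind of scaling was not tested.

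Protocol 1C, the longest culture, had 2 rises and 3 falls among the 10 members, where 60.2% of all genes changed, 28.4% rose and 31.8% fell. Hspa1a had 1.42, 2.68 and 3.55 CPM with HMGB1, against 0.107, 0.589 and 0.372 CPM in Controls (log2 fold change 2.76 ± 0.52, adjusted p = 0.000716). Hspa1b had 4.23, 4.43 and 6.62 CPM with HMGB1, against 1.12, 0.667 and 1.36 CPM in Controls (log2 fold change 2.29 ± 0.32, adjusted p = 6.93e-05). The HMGB1 libraries lay above the Controls for both genes, as in 31.3% of all genes tested. The HSP90 genes did not pass here (Hsp90aa1 0.11 ± 0.11, Hsp90ab1 0.17 ± 0.09) and neither did Hspa8 (log2 fold change 0.26 ± 0.11, adjusted p = 0.0607). By raw counts, the members together fell, from 0.363, 0.335 and 0.322% of Control libraries to 0.269, 0.244 and 0.233% of HMGB1 libraries. Dnajb4 had 14, 11.1 and 11.5 CPM with HMGB1, against 22.6, 28.7 and 28.4 CPM in Controls (log2 fold change −1.11 ± 0.14, adjusted p = 3.00e-05). Hsph1 had 25.9, 24.1 and 25.0 CPM with HMGB1, against 49.1, 48.2 and 47.9 CPM in Controls (log2 fold change −0.94 ± 0.09, adjusted p = 2.74e-06). Both genes fell with no overlap between the groups, as did 35.7% of all genes tested. Hspb1, on 3, 3 and 9 reads with HMGB1 and 14, 21 and 19 reads in Controls, fell as well (log2 fold change −1.58 ± 0.55, adjusted p = 0.0264, edgeR), a call lost when any 1 library other than HMGB1 replicate 3 was left out (adjusted p up to 0.117). The monocyte marker sum moved with HMGB1 in these cultures. It was 642 to 796 CPM with HMGB1 against 227 to 293 CPM in Controls in Protocol 1A (5 of 6 markers with counts), 218 to 249 CPM against 55.6 to 65.0 CPM in 1B (3 to 4 of 6), and 589 to 646 CPM against 122 to 171 CPM in 1C (5 to 6 of 6). Immediate early genes summed to 2067 to 2144 CPM with HMGB1 against 1059 to 1123 CPM in Controls in 1A, 2603 to 3582 CPM against 1139 to 1201 CPM in 1B, and 3265 to 4277 CPM against 1259 to 1513 CPM in 1C. The part of either in the response was not tested.

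In the adult cells no member passed in the main fit, which left the libraries unpaired. In Protocol 2, 0 of 10 members passed, where 1.49% of all genes changed, and 0 had an unadjusted p under 0.05 in edgeR or passed in DESeq2. The log2 fold changes lay between −0.12 (Hspe1) and 0.28 (Hspa1b). Hspa1b had 5.82, 3.56 and 6.84 CPM with HMGB1 against 5.07, 3.29 and 4.89 CPM in Controls, and Hsp90aa1 271, 219.6 and 260.5 CPM against 242, 231 and 254 CPM, with overlap in both. Summed over the 10 genes, Protocol 3 cells had 29191 ± 8627 CPM with HMGB1 and 29356 ± 7964 CPM in Controls (SD, n = 3 each). In Protocol 3 none of the 10 passed in edgeR or in DESeq2, where 0.123% of all genes changed, and 1 had an unadjusted p under 0.05. That gene was Dnajb4, with 192, 201 and 197 CPM with HMGB1 against 167, 167 and 179 CPM in Controls, the only member whose groups did not overlap, as in 11.3% of all genes tested (log2 fold change 0.22 ± 0.07, adjusted p = 0.696). Same-numbered Protocol 3 libraries moved together, as the high replicate 3 of both groups shows. With the replicate number as a block, Dnajb4 rose (0.22, adjusted p = 0.00473) and Hspe1 fell (−0.20, adjusted p = 0.0403), so that 2 members passed, against 2.17% of all genes in that fit. Without replicate 3 of both groups Dnajb4 passed too (0.25, adjusted p = 0.0268), against 0.885% of all genes. The precision was low for the members that spread most between replicates, where the standard error of the log2 fold change was 0.54 for Hsph1 and 0.43 for Hspa1a.

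**Figure D5:**
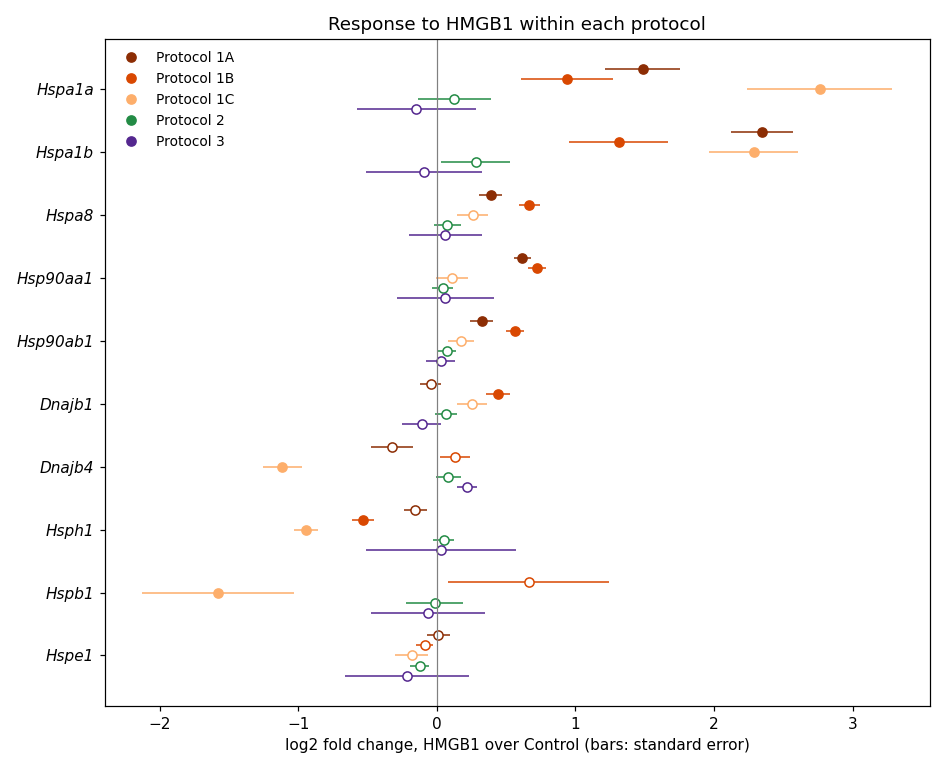
Log2 fold change of each chaperone gene with HMGB1 over Control, by protocol (colours), with standard errors from the quasi-likelihood fit as bars. Filled points passed the main, unpaired test and open points did not, and Hspb1 in Protocol 1A was not tested. Filled points belong to Protocols 1A, 1B and 1C alone, with rises in Hspa1a and Hspa1b in all 3.

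Tested directly, the responses differed between adult and neonatal cells in 4 or 5 of the 10 members. For Protocol 2 minus Protocol 1 the difference of log2 fold changes was −1.59 ± 0.49 for Hspa1a (adjusted p = 0.0112), −1.70 ± 0.44 for Hspa1b (adjusted p = 0.00293), −0.28 ± 0.10 for Hsp90ab1 and 0.52 ± 0.13 for Dnajb4, where 43.6% of all genes differed (edgeR). The corresponding Protocol 3 minus Protocol 1 differences were −1.89 ± 0.42 for Hspa1a, −2.10 ± 0.38 for Hspa1b, −0.35 ± 0.10 for Hsp90ab1, −0.35 ± 0.12 for Dnajb1 and 0.63 ± 0.12 for Dnajb4, where 42.7% differed. The shares called are again close to those of all genes, and the 2 comparisons share the Protocol 1 libraries. The TMM factors fell with HMGB1 in Protocol 1 (1.14 to 1.25 in Controls, 0.731 to 0.909 with HMGB1). They changed little in Protocol 2 (1.03 to 1.11 and 1.04 to 1.09) and Protocol 3 (0.897 to 0.945 and 0.879 to 0.933). Whether the Hsp90ab1 and Dnajb1 differences hold under another kind of scaling was not tested. The spread of Protocol 3 replicate 3 entered the common fit, and without it 7 and 8 members differed, with Hspa8, Hsp90aa1 and Hsph1 added in each, against 43% and 37.2% of all genes in that fit. Blocking on replicate number likewise gave 7 and 8, against 47.2% and 45.5% of all genes. Dnajb1 lost its call in Protocol 3 minus Protocol 1 without Protocol 3 Control replicate 3 (adjusted p = 0.183) or without HMGB1 replicate 1 or 2, and Hsp90ab1 lost its call in Protocol 2 minus Protocol 1 without Protocol 1A HMGB1 replicate 1, Protocol 2 Control replicate 3 or Protocol 2 HMGB1 replicate 2. With Protocol 1A alone in place of the neonatal mean, only Hspa1b differed from Protocol 2. Protocol 3 minus Protocol 2 had 0 differences in edgeR and in DESeq2, 0 members with an unadjusted p under 0.05, and 0.368% of all genes. Among neonatal cultures, Protocol 1C minus Protocol 1A differed in Dnajb4 alone (−0.83 ± 0.16, adjusted p = 0.000672; 14% of all genes). For Protocol 1B minus Protocol 1A 0 members passed in edgeR (6.9% of all genes), 2 had an unadjusted p under 0.05 and 1 passed in DESeq2, namely Dnajb1.

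The rest of the chaperone network was read from 7 gene lists. Between the Protocol 2 and Protocol 3 Controls, where 37.2% of all genes were lower and 40.1% higher, 14 of 19 cytosolic HSP70 partners were lower and 2 higher, with Bag3, a stress-induced nucleotide exchange factor, at −2.17, St13 at −1.62 and Dnaja2 at −1.62 on the log2 scale. Of the 12 HSP90 cochaperones 5 were lower and 4 higher, led by Ptges3 (p23, −2.65) and Unc45a (−1.45), with Sgta higher (0.76). Of 14 subunits of the cytosolic chaperonin TRiC and of prefoldin, 10 were lower and 1 higher (Cct3 −1.23, Cct2 −1.07). The organelle lists were mixed, with 5 of 13 chaperones of the endoplasmic reticulum lower and 5 higher (Hspa5 −1.99, Pdia4 1.63, Dnajb11 1.40) and 4 of 9 mitochondrial chaperones lower and 4 higher (Hspa9 −1.37, Trap1 1.26). Unlike Hspb1, Cryab and Hspb6 were higher in Protocol 2 (1.65 and 1.68) and Hspb7 was lower (−3.87), which are the 3 calls among 5 other small heat shock proteins tested. Of the regulators, Hsf1 and Hsf2 were lower (−1.36 and −1.20) and Hsbp1, a binder of heat shock factor 1 that restrains it, was higher (2.07). The median log2 fold change was −0.63 for the HSP70 partners, −0.82 for TRiC and prefoldin and 0.01 for the endoplasmic reticulum list, against −3.97 for the 10 members and 0.08 for all genes. The counts of the HSP90 cochaperone, endoplasmic reticulum and mitochondrial lists were near the shares of all genes.

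With HMGB1 in Protocol 1A, on the same TMM scaling, 9 of 19 HSP70 partners rose and 4 fell. Dnaja2, a J-domain protein, rose by 1.62, Stip1, which hands clients from HSP70 to HSP90, by 1.31 and Dnajb6 by 1.11 on the log2 scale. Stip1 averaged 184 ± 21.7 CPM with HMGB1 against 73.3 ± 2.30 CPM in Controls (SD, n = 3 each). Of TRiC and prefoldin 11 of 14 rose and none fell (Cct3 0.90), of the endoplasmic reticulum chaperones 9 of 12 tested rose and none fell (Hspa5 0.98), and of the HSP90 cochaperones 4 of 11 rose and 1 fell (Cdc37 0.59, Ptges3 0.62). Of the mitochondrial list 3 of 9 rose and none fell, Hspd1 not among them (0.06), Hsf2 rose (0.50) while Hsf1 and Hsbp1 did not pass, and Hspb6, the only small heat shock protein tested, fell (−0.94). The median log2 fold change was 0.09 for the HSP70 partners, 0.46 for TRiC and prefoldin and 0.34 for the endoplasmic reticulum list, against −0.04 over all genes, of which 29.7% rose and 31.6% fell. In Protocols 2 and 3 no gene of these 7 lists passed in the main, unpaired edgeR fit.

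By the profile over the 10 group means, centred on the mean of each gene, Hspa1a and Hspa1b were closest to Siglech (root mean square difference 0.66 and 0.72 on the log2 scale), Nr4a1 and Hbb-bs, a microglial receptor, an immediate early gene and a globin. The closest genes were Baz2b (0.16) for Hspa8, Spata5 (0.13) for Hsp90ab1, Gnl2 (0.12) for Dnajb1, Zbtb46 (0.24) for Dnajb4, Iqch (0.18) for Hsph1, Fosb (0.77) for Hspb1 and Bap1 (0.09) for Hspe1, out of 9495 protein-coding candidates. For Hsp90aa1 they were 1700109H08Rik (0.25), Gm10382 (0.27) and Serpinf2 (0.27). The ranges of the profiles differ widely, from 0.91 for Hspe1 to 11.83 for Hspa1a. Among the members the closest pair was Hspa8 with Hsp90ab1 (0.17), followed by Dnajb1 with Hspa8 (0.23) and with Hsp90ab1 (0.24), and Hspa1a was closest to Hspa1b (0.33). These values are descriptions over 10 groups, of which 2 come from Protocol 3.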

How the data were processed

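Bulk mRNA was sequenced in 30 libraries of mouse microglia, 3 in each of 10 groups. The deposited values are raw read counts per gene, made by the authors with HISAT2 2.0.5 and featureCounts 1.5.0-p3 per the submitters' processing notes and deposited in 1 table without normalization. The genome build, the strand setting and the handling of reads that map to several genes are not given in the sources used here. Positions of the 10 genes in the table equal those of GENCODE M21 on GRCm38. Reads shared between near copies can move between genes at the counting step.

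Counts were tested in R 4.3.3 with edgeR 4.0.16 (filterByExpr, TMM scaling, robust quasi-likelihood F test) over all genes, with Benjamini-Hochberg adjustment and a threshold of 0.05. Each HMGB1 response was fitted on the 6 libraries of its protocol, contrasts of Controls on the Control libraries, and differences of responses on all 30 libraries, 15 comparisons in all. Protocol 1 stands for the mean of 1A, 1B and 1C. CPM values are counts divided by the library total times its TMM factor over all 30 libraries. The scripts were tested on simulated counts. Ratios of CPM per kilobase of gene length are given as descriptions, without a test.

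Alternatives were DESeq2 1.42.0 size factors and its Wald test, no filter beyond 1 count, leaving out mitochondrial and rRNA-type genes, a smallest absolute log2 fold change of 1, a block for replicate number, other choices of the libraries fitted, Protocol 1A alone, and leaving out each library. The fit without replicate 3 of Protocol 3 was added after seeing the data. Deviations of same-numbered HMGB1 and Control libraries correlated at 0.164 to 0.387 in Protocol 1B, 0.297 to 0.451 in Protocol 2 and 0.194 to 0.301 in Protocol 3. These libraries may thus be paired, but the main tests left all libraries unpaired. Pairing entered only through the block for replicate number. In Protocols 1A (0.0609 to 0.102) and 1C (0.0996 to 0.161) not every pair was over 0.1. Differently numbered libraries correlated at most at 0.0342 in 1A and −0.000613 in 1C, so libraries of these protocols may be paired too.

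Members and gene lists were chosen with earlier results of these data known. Named beside the 10 members are, for each of 7 chaperone lists, up to 3 genes with the smallest adjusted p among those called and the most abundant gene not called (in the Controls of Protocol 2 over Protocol 3 and in the Protocol 1A response), the 3 genes with the most similar profile, Hspd1, and pseudogenes or overlapping genes with counts. Marker genes are named as checks of the cells.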

Additional observations from a re-analysis of the deposited data

Results flagged for a closer look

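The following members responded to HMGB1 differently in 2 protocols by the test of the difference itself, an interaction term in the edgeR fit of 30 libraries. In Protocol 2 minus Protocol 1 the differences of log2 fold changes were −1.59 for Hspa1a, −1.70 for Hspa1b, −0.28 for Hsp90ab1 and 0.52 for Dnajb4. In Protocol 3 minus Protocol 1 they were −1.89 for Hspa1a, −2.10 for Hspa1b, −0.35 for Hsp90ab1, −0.35 for Dnajb1 and 0.63 for Dnajb4. Within the neonatal cultures the response of Dnajb4 in Protocol 1C was below that in Protocol 1A by a difference of −0.83. Hspa1a and Hspa1b were low in all cultured cells, and their differences are ratios between low levels. The TMM factors fell with HMGB1 in Protocol 1 and changed little in Protocols 2 and 3. Whether the Hsp90ab1 and Dnajb1 differences hold under another kind of scaling was not tested.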

How the results depend on the processing

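No called result changed direction, and all 10 members were lower in Protocols 1 and 2 than in Protocol 3 under each alternative run for those counts but 2. These were the minimum absolute log2 fold change of 1, with 9 in both comparisons, and only the libraries compared, with 9 for Protocol 2, where Hspe1 lost its call. Counts of members called did move in other comparisons. With the DESeq2 Wald test there were 4 for Protocol 1B over 1A Controls, 4 for Protocol 1C over 1A Controls, and for response differences 1 in 1B minus 1A (1 also with DESeq2 size factors) and 2 in 1C minus 1A. With no filter beyond 1 count they were 4 (1B over 1A), 5 (1C over 1A), 8 (response difference 3 minus 1), 2 (1B minus 1A) and 5 (1C minus 1A). A minimum absolute log2 fold change of 1 left 2 in the Protocol 1A response, 1 in 1B, 0 for 1B over 1A, 2 each for 2 minus 1 and 3 minus 1, and 0 for 1C minus 1A. The replicate block gave 2 in the Protocol 3 response, 7 for 2 minus 1, 8 for 3 minus 1, 3 for 1B minus 1A and 5 for 1C minus 1A, and changed no member call in the Protocol 1B and 2 responses. Only the libraries compared gave 5 (1C over 1A), 7 (2 minus 1), 2 (1B minus 1A) and 3 (1C minus 1A), and Protocol 1A alone gave 1 for 2 minus 1. Without replicate 3 of Protocol 3, a choice made after seeing the data, the counts were 1 (Protocol 3 response), 5 (1B over 1A), 5 (1C over 1A), 7 (2 minus 1), 8 (3 minus 1), 2 (1B minus 1A) and 3 (1C minus 1A). Leaving out 1 library gave 0 to 3 for 1B over 1A, 1 to 2 for 1C over 1A and 0 to 1 for 1B minus 1A. The cause was not tested.

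Over all genes, calls in the Protocol 3 response numbered 19, against 75 with DESeq2, 123 without the filter, 334 with the block, 8 with all 30 libraries, 137 without replicate 3 and 7 to 44 without 1 library. The Protocol 2 response had 232 calls, against 530 without the filter, 1236 with the block and at least 127 without 1 library. The response difference 3 minus 2 had 67, against 177 without the filter and 158 with the block, and 1B minus 1A had 1255, against 2035 with the block. The minimum fold change left 3262 of 8266 in Protocol 1A, 3615 of 8404 in 1B, 4513 of 8632 in 1C, 52 in Protocol 2, 6 in Protocol 3, 3807 of 9417 for Protocol 1 over 2, 2236 of 5247 for 1B over 1A, 1381 of 3578 for 1C over 1A, 3787 of 7922 for 2 minus 1, 3835 of 7766 for 3 minus 1, 23 for 3 minus 2, 489 for 1B minus 1A and 621 of 2544 for 1C minus 1A. Hspb1 in the neonatal cultures and Hspa1a in Protocol 1C Controls rest on too few reads for a firm fold change. In the Protocol 1A response Hspb1 could be tested without the filter (1.25, adjusted p = 0.322, edgeR) and in the fit of 30 libraries (1.30, adjusted p = 0.454).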
